A study of Homo sapiens with 16 samples.

Results

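The clustered protocadherins are cell-surface proteins encoded by 3 tandem arrays on chromosome 5, and they were read here across 16 RNA-seq libraries of the human cell line HAP1. Members were all genes of the count table whose symbol starts with PCDHA, PCDHB or PCDHG, with the pseudogenes PCDHB17, PCDHB18, PCDHB19P and PCDHGB8P kept apart, which gave 53 of 33121 entries. There were 13 PCDHA genes and 2 C-type PCDHA genes, 16 PCDHB genes, 12 PCDHGA genes, 7 PCDHGB genes and 3 C-type PCDHG genes. Of the 53, 21 had enough counts to be tested.

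HAP1 is a near-haploid line derived from a chronic myeloid leukaemia. The 4 groups of 4 poly-A RNA libraries were HAP1 cells with a deletion of SLC30A10, a metal exporter of the cell surface (the SLC30A10 knockout), HAP1 cells without that deletion grown as its controls (the SLC30A10 control), HAP1 cells with a deletion of another gene (the second knockout), and the controls of that experiment (the second control). No drug or other agent is named for any group. Each knockout carries 1 cell line identifier of its own and both control sets share another, but how many clones stand behind a group, and whether its libraries came from separate cultures, is not stated. The p-values therefore measure the spread between these libraries, which may be technical, and a knockout's gene deletion and the history of its clone cannot be told apart.

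Each clustered protocadherin isoform has its own promoter and its own large first exon, which encodes the extracellular domains that bind the same isoform on a neighbouring cell. In the alpha and gamma clusters that exon is spliced to constant exons shared by the cluster, whereas the beta genes are unspliced in their coding part and have no constant exons. In neurons a cell expresses a small set of isoforms, chosen with the help of promoter methylation and of looping by CTCF and cohesin, while the C-type isoforms are expressed more broadly, and the set that a cell has chosen is inherited by its descendants in some cultured lines.

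Most of the signal in HAP1 came from the beta cluster, whose promoters share a short element. The RefSeq promoter table for GRCh38.p14 (250 bases before to 50 bases after the gene start) matched 47 of the 53 members. The 9-letter word GGTGGCGCT (reverse complement AGCGCCACC, both strands searched) was present in 13 of 14 PCDHB promoters and in none of the other member promoters. It occurred in 176 of 35116 promoters of the same length, or 0.501%. PCDHB1 was the PCDHB promoter without it. The word was chosen before the search and not found by it, so these shares are descriptive and were not tested. Its last 4 letters, CGCT (reverse complement AGCG), were in 46 of 47 member promoters, beside 70.0% of all promoters. All 12 PCDHB genes that could be tested carry the long word, those that changed and those that did not. The 25-base windows around it are shown because they are what these promoters have in common. Capitals mark the word, and all lie on the plus strand:
PCDHB2: agacgcggGGTGGCGCTgcagcctt
PCDHB3: gaacgcatGGTGGCGCTgttgacta
PCDHB4: agacgcagGGTGGCGCTgcaggcta
PCDHB5: ggacgcctGGTGGCGCTgcaggcta
PCDHB7: aaacgcaaGGTGGCGCTgctggcta
PCDHB8: ggacccgtGGTGGCGCTgcaggata
PCDHB16: gaacgcgtGGTGGCGCTgcaggtta
PCDHB9: agccacaaGGTGGCGCTgcagactg
PCDHB10: ggccacacGGTGGCGCTgcaggcta
PCDHB12: agacgcgtGGTGGCGCTgcaggata
PCDHB13: ggacgcgtGGTGGCGCTgcaggata
PCDHB14: agacacatGGTGGCGCTacaggata
PCDHB15: caacgcatGGTGGCGCTgcaggcta

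The word was followed by the letters gcag in 10 of the 13 windows, PCDHB3, PCDHB7 and PCDHB14 being the others, and it began between 2 and 84 bases before the gene start. The 250 bases before the start are given for the 4 genes on which the comparisons turned, PCDHB3, PCDHB5, PCDHB16 and PCDHB12. The 4 stretches were not aligned with each other outside the word, which is in capitals:
PCDHB3 (chr5:141100223-141100472, plus strand): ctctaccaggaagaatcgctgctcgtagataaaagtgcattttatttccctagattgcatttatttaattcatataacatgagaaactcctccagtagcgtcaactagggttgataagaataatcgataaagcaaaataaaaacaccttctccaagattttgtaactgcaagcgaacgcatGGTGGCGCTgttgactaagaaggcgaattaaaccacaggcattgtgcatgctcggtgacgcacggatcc
PCDHB5 (chr5:141134956-141135205, plus strand): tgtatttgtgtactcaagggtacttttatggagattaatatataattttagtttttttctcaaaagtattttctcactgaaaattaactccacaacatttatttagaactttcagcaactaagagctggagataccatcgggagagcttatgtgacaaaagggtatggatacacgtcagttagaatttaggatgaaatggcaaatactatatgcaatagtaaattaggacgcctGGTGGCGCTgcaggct
PCDHB16 (chr5:141182137-141182386, plus strand): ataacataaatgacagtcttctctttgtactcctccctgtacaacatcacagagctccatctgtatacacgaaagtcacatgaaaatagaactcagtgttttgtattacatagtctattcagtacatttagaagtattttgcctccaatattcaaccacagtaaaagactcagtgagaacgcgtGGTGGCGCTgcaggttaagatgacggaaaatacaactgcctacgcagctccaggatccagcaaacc
PCDHB12 (chr5:141208469-141208718, plus strand): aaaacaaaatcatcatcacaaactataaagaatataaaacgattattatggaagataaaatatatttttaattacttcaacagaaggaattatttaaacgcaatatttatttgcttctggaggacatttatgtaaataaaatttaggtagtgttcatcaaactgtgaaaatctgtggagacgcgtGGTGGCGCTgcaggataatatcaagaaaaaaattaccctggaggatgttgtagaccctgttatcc

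The libraries held 16058856 to 16648151 counts. The limit used here for calling a gene undetected, 3 counts, corresponded to 0.180 to 0.187 per 1000000 counts of the library total. CPM are counts per 1000000 of the effective library size. The 53 members together gave 946 to 1294 counts per library. Libraries of a group differed by more than sampling noise (chi-square per degree of freedom 1.60 to 6.43), so none was counted as a duplicate. The deleted gene SLC30A10 had few counts, 6 to 9 in the control and 3 to 11 in the knockout libraries. A two-sided exact permutation test of 0.472 ± 0.0774 CPM (control; SD, n = 4) against 0.418 ± 0.217 CPM (knockout) gave p = 0.571, where the smallest possible is 0.0286, so gene-level counts did not check the knockout labels. Of 9 blood-cell markers, 6 did not exceed 3 counts in any library, among them PTPRC and GATA1, and TAL1 carried their sum, which was 13.3 to 14.9 CPM in the second knockout and 68.8 to 84.1 CPM elsewhere. Summed neuronal markers were 9.51 to 10.8 CPM in the SLC30A10 knockout, 25.1 to 31.6 in its control, 17.4 to 19.9 in the second control and 23.0 to 39.3 in the second knockout, with 1 of 7 markers at or under 3 counts throughout. Summed fibroblast markers were 145 to 159 CPM in the SLC30A10 knockout and 232 to 243 in its control, and 153 to 188 in the second knockout and 248 to 279 in its control, with 2 of 6 markers at or under 3 counts throughout. PDGFRA (1776 to 4018 counts per library) and COL1A1 (481 to 699) carried this sum, and 4 of the 6 never exceeded 10 counts. Summed epithelial markers were 56.7 to 64.1 CPM in the SLC30A10 knockout and 47.8 to 55.5 in its control, and 37.0 to 40.4 in the second knockout and 46.6 to 51.5 in its control, with 1 of 5 markers at or under 3 counts throughout. KRT18 (546 to 863 counts per library) carried most of this sum. The part of these markers in the results below was not tested. In bulk RNA, fewer cells with an isoform and less RNA per cell cannot be told apart.

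HAP1 cells of all 4 groups expressed a broad but uneven set of isoforms. Expression was highest for PCDHB5, a beta isoform, with 137 to 266 counts per library. Per kilobase of exon not shared with another gene, PCDHB5 led every group, at 4.69 ± 0.63 CPM per kb (SD, n = 4) in the SLC30A10 control, 3.39 ± 0.39 in the SLC30A10 knockout, 4.19 ± 0.25 in the second control and 4.74 ± 0.57 in the second knockout. PCDHGC3, a C-type gamma isoform, came next in 3 of these groups, at 2.18 ± 0.17 CPM per kb in the SLC30A10 control, 1.94 ± 0.43 in its knockout and 1.67 ± 0.09 in the second control. PCDHB3 stood in the second knockout at 2.55 ± 0.38 CPM per kb, above PCDHGC3 at 1.84 ± 0.16. The 3 most counted members were also taken by group mean count, without regard to length. In the SLC30A10 control PCDHB5, PCDHGC3 and PCDHB13 held 43.7% of member counts, and in its knockout the same 3 held 35.8%. In the second control PCDHB5, PCDHB13 and PCDHGA10 held 37.7%, and in the second knockout PCDHB5, PCDHB3 and PCDHGC3 held 39.7%.

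Within the alpha cluster, signal was concentrated at its ends. PCDHA3 was the most counted alternate alpha isoform, with 25 to 53 counts per library, and the C-type isoform PCDHAC2 had 33 to 50. PCDHA4 to PCDHA13 reached at most 6 counts in any library. These alpha genes share 21.3% to 63.1% of their annotated exon bases (GENCODE 29) with other genes, yet their counts fell to 0 beside PCDHAC2, so reads in the constant exons were not counted once for every isoform. In the gamma cluster PCDHGA10 had 63 to 117 counts, PCDHGB2 5 to 20 and PCDHGB7 2 to 18. PCDHGC4 and PCDHGC5, the other C-type gamma isoforms, never exceeded 2 counts. PCDHB1 had none in any library, and 13 members, PCDHB1 included, never exceeded 3 counts.

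**Figure D1:**
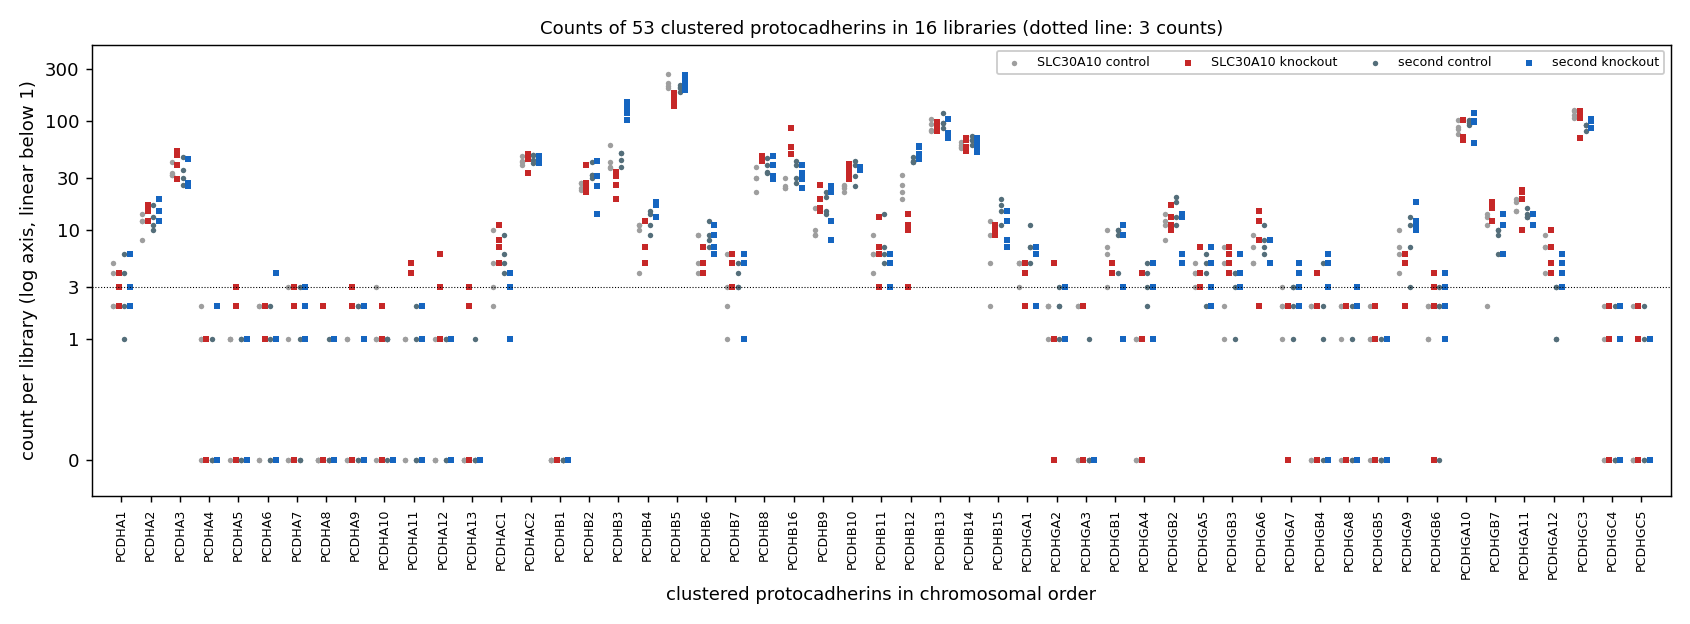
Counts per library (vertical axis, logarithmic above 1 and linear below it) of the 53 members in chromosomal order, with a point for each of the 16 libraries coloured by group and a dotted line at 3 counts. PCDHB5 lies highest in every group, PCDHB3 of the second knockout stands at 101 to 148 counts, and PCDHA4 to PCDHA13 lie at 0 to 6.

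The question the 4 groups pose for these genes is which isoforms a clone has switched on or off. A member was taken as switched off when its control libraries averaged at least 10 counts, each above 3, and every knockout library had 3 or fewer, and as switched on in the reverse case. The rule can be met only by members with enough counts in the group that has to be high. In the SLC30A10 experiment 17 members could have been called off and 18 on, and 34 of the 53 could have been called neither. By this rule 0 members were switched on and 0 switched off in the SLC30A10 knockout, beside 0.0471% and 0.153% of all genes with a count (52 of the members had one). For the second knockout the numbers were again 0 and 0, beside 0.0314% and 0.177%, where 19 members could have been called off and 20 on. Between the control sets they were 0 and 0, beside 0.0236% and 0%, where 19 could have been called off and 17 on. No test belongs to these counts. The nearest case was PCDHB12, with 10, 3, 14 and 11 counts in the SLC30A10 knockout. For the members below these counts, switching was not detectable at this depth. Differences of level were tested with edgeR's quasi-likelihood test, with p-values adjusted by Benjamini-Hochberg over 15569 tested genes and a threshold of 0.05.

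In the SLC30A10 knockout the beta isoforms moved in both directions. The 16 PCDHB genes together gave 575 to 617 counts in the control and 553 to 582 in the knockout, or 36.0 ± 1.16 CPM against 35.6 ± 0.87 (SD, n = 4), and these ranges overlap. Within the cluster, 4 members rose, PCDHB16, PCDHB8, PCDHB9 and PCDHB10, and 3 fell, PCDHB12, PCDHB3 and PCDHB5. These 7 of 21 tested members (33.3%) compare with 41.4% of all tested genes, of which 21.2% were higher and 20.2% lower, and with 34.3% of the 5486 genes whose mean count lay within the members' own range of 8.125 to 202.25. The members' share was thus near or under the background. The median log2 difference of the 21 members was 0.17 and that of all genes 0.00. The median size without sign was 0.38, beside 0.29 for the genes at the members' depth and 0.16 for all genes, which were mostly counted more deeply.

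**Figure D2:**
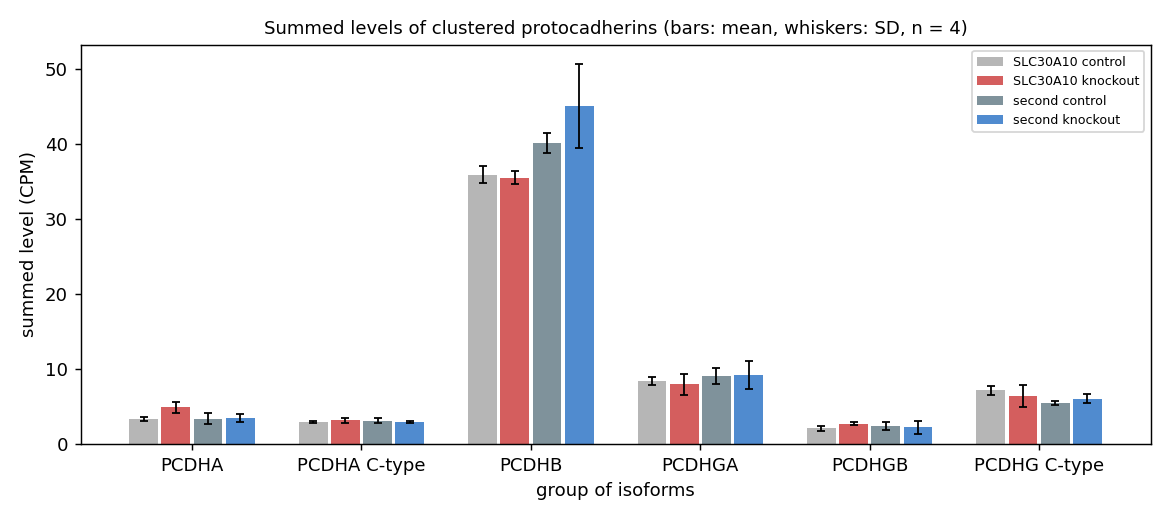
Summed level in CPM (vertical axis) of each group of isoforms (horizontal axis) in the 4 groups of libraries, as mean with SD over 4 libraries. The PCDHB sum was 36.0 and 35.6 CPM in the SLC30A10 control and knockout, and 40.2 and 45.1 CPM in the second control and knockout.

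PCDHB16 showed the largest rise. It had 24, 30, 24 and 25 counts in the SLC30A10 control and 50, 85, 57 and 57 in the knockout. Every knockout library lay above every control library, and replicate 2 of the knockout was highest. The level went from 1.57 ± 0.17 to 3.86 ± 0.97 CPM, a log2 fold change of 1.29 ± 0.19 (SE; edgeR adjusted p = 4.65e-06). The second control (27 to 43 counts) and the second knockout (24 to 39) both lay below the SLC30A10 knockout. PCDHB16 and PCDHB12 were the 2 of 21 members past the threshold with at least a 2-fold difference, beside 4.51% of all genes.

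The 3 other genes that rose flank PCDHB16. In RefSeq order PCDHB8 (chr5:141177790-141180539), PCDHB16 (chr5:141182387-141186226), PCDHB9 (chr5:141187161-141191541) and PCDHB10 (chr5:141192353-141195647) follow each other with no gene of the clusters between them. PCDHB8 had 38, 30, 22 and 30 counts in the control and 48, 45, 47 and 43 in the knockout. These groups did not overlap, and the log2 fold change was 0.63 ± 0.18 (edgeR adjusted p = 0.00609). PCDHB10 had 24, 25, 26 and 22 counts against 40, 33, 38 and 29, again without overlap (0.55 ± 0.18, edgeR adjusted p = 0.0173). PCDHB9 had 16, 10, 9 and 9 counts against 15, 19, 16 and 26, and here the highest control library lay above the lowest knockout library (0.81 ± 0.32, edgeR adjusted p = 0.0410). The neighbours on either side had too few counts to be tested: PCDHB7 lay upstream of PCDHB8, and PCDHB11 downstream of PCDHB10. The 4 genes together, a set put together after their values were seen and not tested, gave 81 to 102 counts in the control and 153 to 182 in the knockout.

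The smaller rises depend on the control set. In the second control the same 4 genes summed to 108 to 136 counts, above the SLC30A10 control and below its knockout. With the second control in place of the first, PCDHB16 kept its call (0.87, edgeR adjusted p = 0.000328), while PCDHB8 gave 0.30 (adjusted p = 0.168), PCDHB9 0.13 (adjusted p = 0.750) and PCDHB10 0.05 (adjusted p = 0.837). With both control sets pooled, PCDHB8 stayed past the threshold in edgeR (0.46, adjusted p = 0.0147), but PCDHB9 (0.47, adjusted p = 0.147) and PCDHB10 (0.30, adjusted p = 0.115) did not. PCDHB9 also lost its call in DESeq2 (0.81, adjusted p = 0.0602) and in edgeR without any of 5 libraries, namely control replicates 2 (0.76, adjusted p = 0.0865), 3 (0.72, adjusted p = 0.0947) or 4 (0.72, adjusted p = 0.0941) and knockout replicates 2 (0.81, adjusted p = 0.0688) or 4 (0.61, adjusted p = 0.162). PCDHB10 lost it without knockout replicate 1 (0.48, edgeR adjusted p = 0.0607). Of the 100-base words in the exons of PCDHB8 and PCDHB10, 25.7% and 24.7% also occur in another protocadherin gene, so their counts are less certain than those of PCDHB16 (6.38%) and PCDHB12 (5.77%).

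PCDHB12 showed the largest fall. Its counts were 22, 26, 19 and 32 in the SLC30A10 control and 10, 3, 14 and 11 in the knockout. Every knockout library lay below every control library, and replicate 2 of the knockout was at the limit of 3 counts. The level went from 1.51 ± 0.34 to 0.588 ± 0.286 CPM, a log2 change of -1.34 ± 0.28 (edgeR adjusted p = 0.000288). Against the second control, with 47, 43, 42 and 42 counts, the difference was larger, at -2.15 (edgeR adjusted p = 7.49e-08).

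PCDHB5 and PCDHB3 fell less. PCDHB5, the most abundant isoform, had 222, 207, 266 and 200 counts in the control and 154, 137, 165 and 180 in the knockout, without overlap (-0.47 ± 0.10, edgeR adjusted p = 0.000606). PCDHB3 had 60, 37, 38 and 42 counts against 26, 31, 19 and 34, again without overlap (-0.66 ± 0.21, edgeR adjusted p = 0.0116). The PCDHB3 call was lost without control replicate 1, its highest control library (-0.48, edgeR adjusted p = 0.0764), and without knockout replicate 3, its lowest (-0.51, adjusted p = 0.0583). In all, 6 of 21 tested members had knockout and control libraries that did not overlap (28.6%), beside 38.3% of all tested genes.

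The other 14 tested members did not pass the test in the SLC30A10 knockout, and their 95% intervals of the log2 difference ran from -1.51 to 1.35. The narrower ones were those of well-counted members. The interval was -0.23 to 0.30 for PCDHB13, -0.20 to 0.33 for PCDHB14, -0.42 to 0.09 for PCDHGC3 and -0.27 to 0.35 for PCDHAC2. None of the gamma isoforms was called. Of these, PCDHGB7 gave the largest estimate, 0.67 ± 0.33 (edgeR adjusted p = 0.101), with 2, 13, 14 and 11 counts against 17, 16, 18 and 12.

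**Figure D3:**
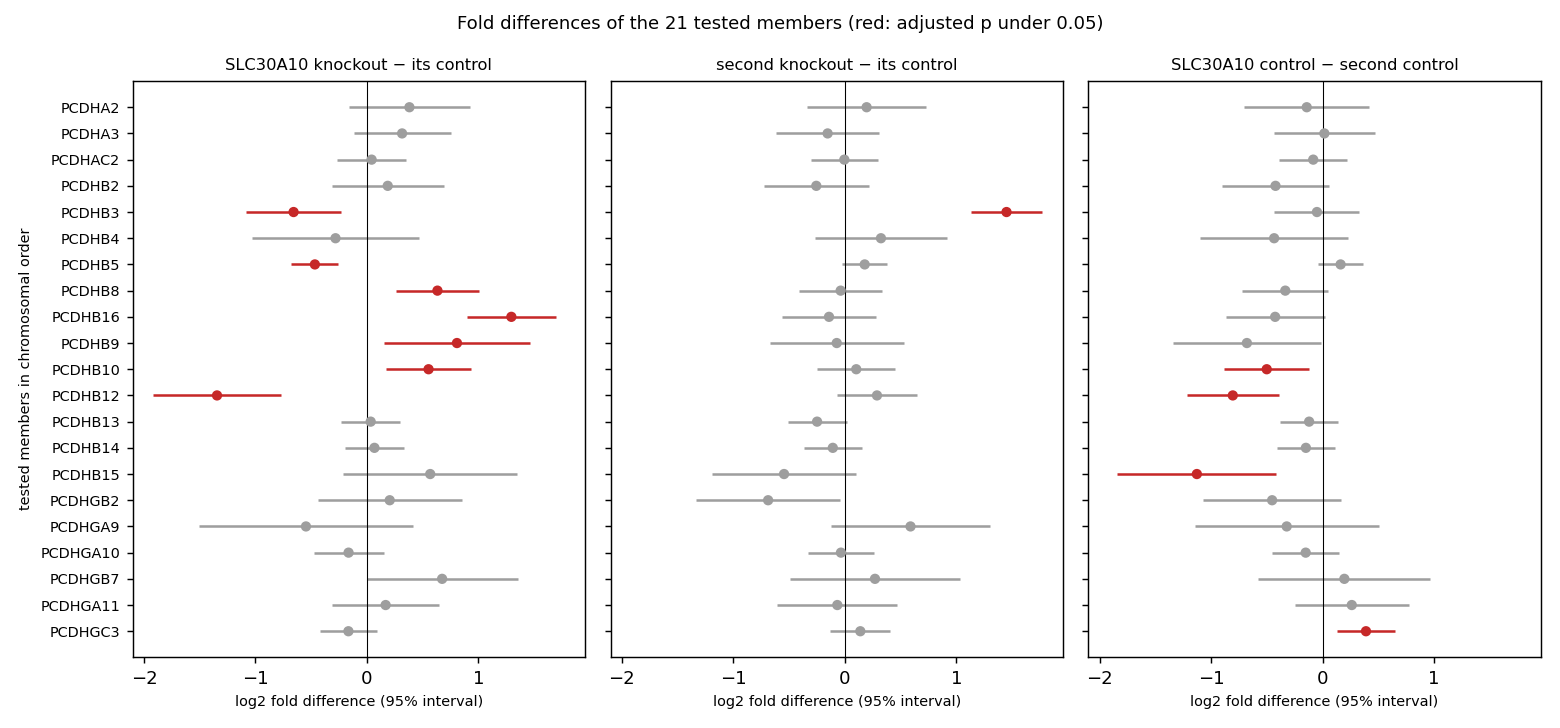
Log2 fold difference (horizontal axis) with its 95% interval for the 21 tested members in chromosomal order, for each knockout against its own control and for the SLC30A10 control against the second control, with members past an adjusted p of 0.05 in red. The 4 adjacent genes PCDHB8 to PCDHB10 lie to the right in the SLC30A10 knockout, PCDHB3 is the sole red point of the second knockout, and the left and right panels share the SLC30A10 control libraries.

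Among the 32 members with too few counts for the test, the sum of the alpha isoforms PCDHA4 to PCDHA13 was higher in the SLC30A10 knockout. The mean count was higher for 8 of the 10 and lower for PCDHA4 and PCDHA10. Summed, a set put together after their values were seen and not tested, they had 6, 9, 5 and 5 counts in the control, 23, 17, 13 and 25 in the knockout, 3 to 8 in the second control and 4 to 12 in the second knockout. PCDHA11 had 0, 1, 1 and 0 counts in the control and 5, 5, 4 and 5 in the knockout. That is 2 counts against 19, a ratio of 9.59 after scaling by the summed library totals, with an exact counting interval of 2.31 to 84.9. PCDHA12 had 1 count against 11, a ratio of 11.1 with an interval of 1.61 to 478. These intervals cover counting error only. Of the 31 untested members with a count, PCDHA11 and PCDHA12 were the 2 without overlap (6.45%), beside 4.87% of all such genes.

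Without the filter on low counts, edgeR called PCDHA11 (adjusted p = 0.00244), PCDHA12 (0.0240), PCDHA13 (0.0248) and PCDHA8 (0.0414) higher in the SLC30A10 knockout, with 0 to 6 counts per library. PCDHA8 and PCDHA13 had 0 counts in every control library and at most 3 in the knockout libraries. That is 4 of the 31, beside 25.8% of all 25458 genes fitted in that way. Of those genes 15569 had passed the filter, so this share is not a like background. The share among genes under the filter was not computed. PCDHA11, PCDHA12 and PCDHA13 are neighbours at the downstream end of the alternate alpha exons. At 5 counts or fewer per library for PCDHA11, the depth does not show how strongly it was expressed.

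In the second knockout a change was called for PCDHB3 alone. PCDHB3 had 51, 38, 51 and 44 counts in the second control and 101, 117, 148 and 134 in the second knockout. The groups lay far apart, and no library of the other groups exceeded 60 counts. The level went from 2.79 ± 0.38 to 7.64 ± 1.15 CPM, a log2 fold change of 1.45 ± 0.16 (edgeR adjusted p = 5.86e-08). The call was kept without each of the 16 libraries in turn, and against the SLC30A10 control the difference was 1.50 (edgeR adjusted p = 1.88e-08). With that control set 5 members were called higher, PCDHB3, PCDHB10, PCDHB12, PCDHB4 and PCDHGA9. With both sets pooled 2 were called higher, PCDHB3 and PCDHB12, so that PCDHB3 was alone only against its own control. Those comparisons also contain all or part of the difference between the control sets, and the share of all genes called in them was not computed. PCDHB3 alone among 21 members, or 4.76%, compares with 13.7% of all tested genes (6.67% higher and 7.03% lower) and 13.9% at the members' depth. It was also the sole tested member without overlap, beside 16.3% of all genes, and the sole one past the threshold with a 2-fold difference, beside 2.3%.

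Neighbours of PCDHB3 did not pass the test. PCDHB2, upstream of it, had 30 to 42 counts in the second control and 14 to 43 in the knockout (-0.26 ± 0.23, edgeR adjusted p = 0.524). PCDHB4, downstream, had 9 to 15 against 13 to 18 (0.32 ± 0.29, edgeR adjusted p = 0.515). PCDHB5, the next gene, had 185 to 213 against 193 to 261 (0.18 ± 0.10, edgeR adjusted p = 0.267). The 20 members that were not called had intervals between -1.33 and 1.30. The summed level of all 53 members varied more among the second knockout libraries (946, 1076, 1202 and 1294 counts) than in any other group, a spread that PCDHB3 (101 to 148 counts) is part of. Of the 31 untested members with a count, PCDHGA12 was without overlap in CPM (3.23%), beside 2.67% of such genes, although its nearest libraries had 3 counts on both sides. Without the filter on low counts, edgeR called 0 of the 31, with 1 at an unadjusted p under 0.05, beside 9.46% of all genes fitted. That share includes the genes that passed the filter, and it was not computed for those under it.

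**Figure D4:**
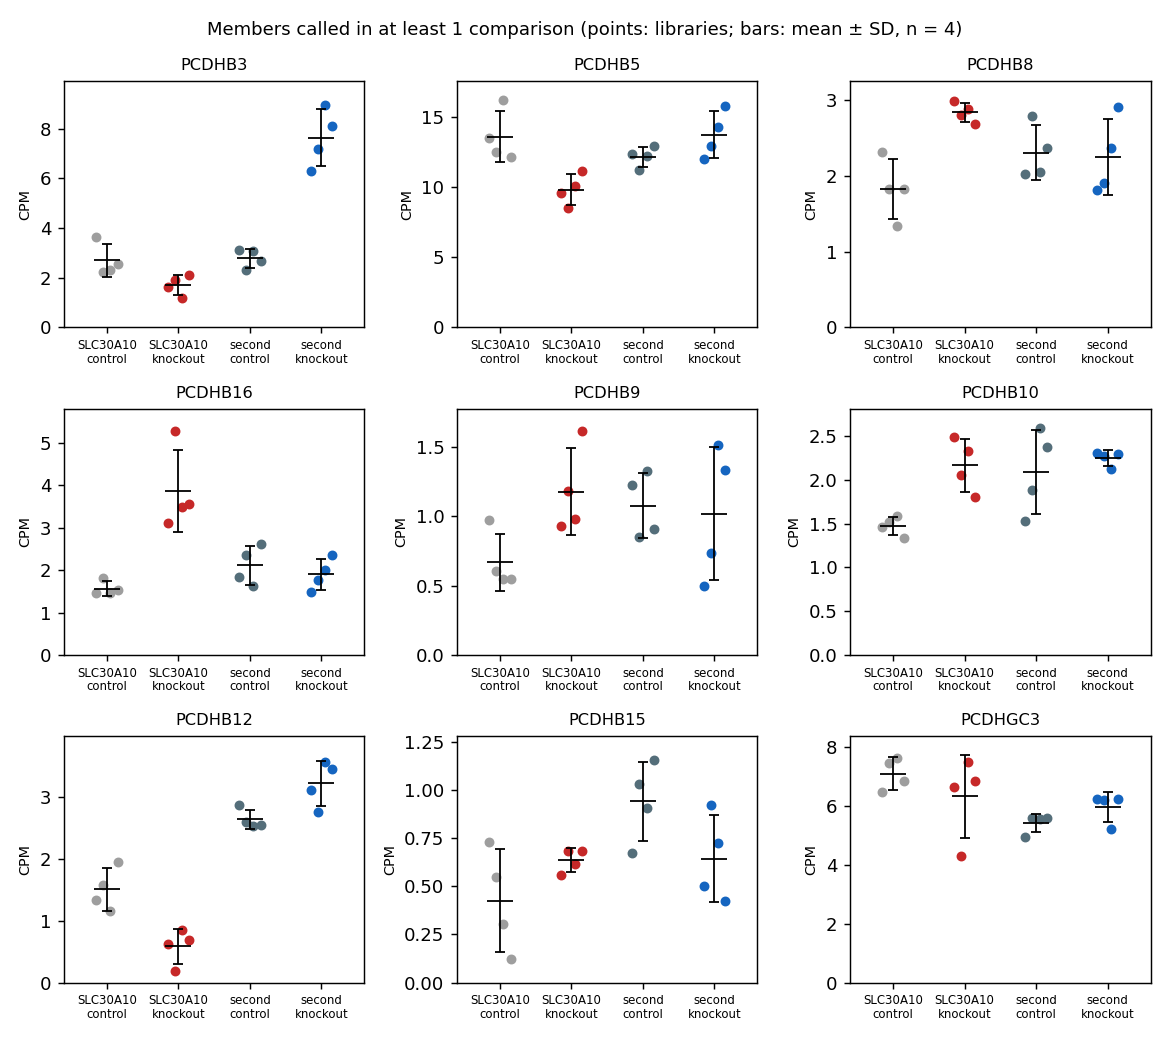
Level in CPM (vertical axis, from 0) of the 9 members called in a knockout or between the control sets, with a point for each library and the mean and SD of each group of 4. PCDHB3 of the second knockout (mean 7.64 CPM) and PCDHB16 of the SLC30A10 knockout (mean 3.86 CPM) lie above all other libraries, and PCDHB12 of the SLC30A10 knockout (mean 0.588 CPM) lies below.

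The knockouts were then compared by the difference of their effects, each against its own control. This difference passed the edgeR threshold for 5 of 21 members (23.8%), beside 31.3% of all genes and 26.2% at the members' depth. PCDHB3 moved in opposite directions and gave the largest value, -2.11 ± 0.26 (SLC30A10 effect minus second effect; edgeR adjusted p = 3.74e-07). For PCDHB12 it was -1.63 ± 0.33 (edgeR adjusted p = 0.000330) and for PCDHB16 1.44 ± 0.28 (adjusted p = 0.000292). PCDHB5 gave -0.65 ± 0.14 (edgeR adjusted p = 0.000948). At least a 2-fold difference was shown by 3 of the 21, PCDHB3, PCDHB12 and PCDHB16, beside 5.51% of all genes. PCDHB8 gave 0.67 ± 0.26 (edgeR adjusted p = 0.0461), a call that was lost in 12 of 16 fits that left out a library, with values of 0.55 to 0.69 in those fits. It was also lost with a replicate block (0.68, edgeR adjusted p = 0.0514), in DESeq2 (0.67, adjusted p = 0.0887), and in edgeR with library totals alone (0.64, adjusted p = 0.0580) or without the filter on low counts (0.67, adjusted p = 0.0597). Without the filter on low counts, edgeR also called PCDHAC1, a C-type alpha isoform, as 1 of the 31 untested members (2.00, adjusted p = 0.0323). The share of all genes fitted was 19.2%, with the genes that passed the filter included. PCDHAC1 had 2 to 10 counts in the SLC30A10 control, 5 to 11 in its knockout, 4 to 9 in the second control and 1 to 4 in the second knockout.

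Control cells of both experiments have a common cell line identifier, and they also differed. The SLC30A10 control was lower than the second control for PCDHB12 (19 to 32 counts against 42 to 47; -0.81 ± 0.20, edgeR adjusted p = 0.00234), PCDHB15 and PCDHB10, and higher for PCDHGC3. PCDHB15 had 12, 9, 5 and 2 counts against 11, 17, 15 and 19, groups that overlap (-1.13 ± 0.35, edgeR adjusted p = 0.0104). PCDHGC3, the broadly expressed C-type isoform, had 106, 123, 125 and 112 counts against 81, 92, 92 and 92, without overlap (0.39 ± 0.13, edgeR adjusted p = 0.0170), a call lost without second control replicate 1 (0.35, adjusted p = 0.0536). PCDHB10 had 24, 25, 26 and 22 counts against 25, 31, 43 and 39 (-0.50 ± 0.18, edgeR adjusted p = 0.0317). The PCDHB10 call was lost without SLC30A10 control replicates 1 (-0.50, adjusted p = 0.0582), 2 (-0.52, 0.0516) or 4 (-0.46, 0.0731) and without second control replicates 3 (-0.38, 0.135) or 4 (-0.44, 0.0917). It was also lost in DESeq2 (-0.50, adjusted p = 0.0852), and in edgeR without the filter on low counts (-0.51, adjusted p = 0.0662) or with the 8 control libraries alone (-0.50, adjusted p = 0.0567).

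These 4 of 21 members (19%) compare with 39.3% of all tested genes and 25.5% at the members' depth, and 3 of 21 had control sets that did not overlap, beside 36.3% of all genes. PCDHB15 was the sole member with a 2-fold difference, beside 1.4% of genes. PCDHB2 was the third member without overlap, after PCDHB12 and PCDHGC3. It was lower in every SLC30A10 control library than in any second control library but was not called (-0.42 ± 0.24, edgeR adjusted p = 0.157). Of 31 untested members with a count, PCDHGA12 (4 to 9 counts against 1 to 3) and PCDHGA4 (0 to 1 against 2 to 5) did not overlap (6.45%), beside 2.7% of such genes. Both were called by edgeR without the filter on low counts (adjusted p = 0.0149 and 0.0225), beside 23.5% of all genes fitted. That share again includes the genes that passed the filter. This comparison shares the SLC30A10 control libraries with the SLC30A10 knockout comparison, so their estimates are not independent. Side by side, PCDHB12 was -0.81 between the controls and -1.34 in the knockout, and PCDHB10 was -0.50 and 0.55. PCDHB16 was -0.43 (edgeR adjusted p = 0.118) and 1.29, and PCDHB3 was -0.05 and -0.66.

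Genes for proteins that act on protocadherin promoters were followed as a list. Of 29 tested regulators (CTCF, cohesin, DNA methylation and silencing factors), edgeR called 6 higher and 15 lower in the SLC30A10 knockout, with a median log2 difference of -0.13 beside 0.00 for all genes. Of all tested genes 21.2% were higher and 20.2% lower in that comparison. Between the control sets, which share the SLC30A10 control libraries with it, 4 regulators were higher and 10 lower. The shares of all tested genes there were 18.5% and 20.8%. In the second knockout edgeR called 0 regulators, beside 13.7% of all tested genes, with 7 at an unadjusted p under 0.05. DESeq2 also called 0, and the median was -0.03. The difference of effects passed the edgeR threshold for 6 regulators in the higher and 8 in the lower direction, beside 16.7% and 14.6% of all genes. CTCFL, a germline relative of CTCF, had 23 to 65 counts in the SLC30A10 control and 248 to 349 in the knockout (2.76 ± 0.20, edgeR adjusted p = 8.38e-12). The second control already had 222 to 326 counts, and against it the difference was 0.16 (edgeR adjusted p = 0.394), so the SLC30A10 control was the low group. EZH2, a histone methyltransferase of the Polycomb system, fell by 0.45 on the log2 scale (edgeR adjusted p = 3.88e-09). SMC1A, a cohesin subunit, rose by 0.35 (edgeR adjusted p = 6.08e-09).

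Of 21 tested genes for signalling and processing partners of the protocadherins, 4 rose and 4 fell in the SLC30A10 knockout, beside 41.4% of all genes called, with a median of 0.02. Of these partners, 2 were higher and 9 lower in the SLC30A10 control than in the second control, beside 39.3% of all genes called. CYFIP2, of the WAVE actin-regulating complex, rose by 0.43 (edgeR adjusted p = 1.73e-09), RET, a receptor kinase that binds protocadherins, by 0.55 (adjusted p = 7.46e-06), and PDCD10, a binding partner, fell by 0.26 (adjusted p = 2.35e-05). Against the second control CYFIP2 (0.04, edgeR adjusted p = 0.461) and RET (0.15, adjusted p = 0.138) were not called. Of the partners, 1 rose and 2 fell in the second knockout, near the 13.7% of all genes called there, with a median of -0.03: the kinase FYN (0.29, edgeR adjusted p = 0.0314) and the gamma-secretase subunits PSENEN (-0.22, adjusted p = 0.0358) and APH1A (-0.17, adjusted p = 0.0304). All 3 calls were lost in edgeR when only the 8 libraries of that experiment were fitted, at estimates of 0.29 for FYN (adjusted p = 0.0778), -0.22 for PSENEN (0.0524) and -0.17 for APH1A (0.0921). Without second knockout replicate 4, which had 954 FYN counts where the other libraries of its group had 642 to 753, the FYN estimate was 0.16 (edgeR adjusted p = 0.185). The FYN call was also lost without second knockout replicate 2 and without second control replicates 1, 3 or 4, at 0.24 to 0.30. The PSENEN call was lost without second knockout replicates 1, 2 or 4, second control replicates 1, 3 or 4 or SLC30A10 knockout replicate 4, at -0.23 to -0.18. The APH1A call was lost without second knockout replicates 1 or 2 or second control replicates 2, 3 or 4, at -0.17 to -0.13.

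Of 15 tested genes that flank the clusters on chromosome 5, 5 rose and 2 fell in the SLC30A10 knockout, near the 41.4% of all genes called, with a median of 0.06, among them ARAP3 (0.35, edgeR adjusted p = 9.30e-05), HARS2 (0.30, adjusted p = 0.000135) and DIAPH1 (-0.20, adjusted p = 0.000202). With the second control in place of the SLC30A10 control ARAP3 gave 0.11 (edgeR adjusted p = 0.160). HDAC3, which fell with DIAPH1, is also counted among the regulators called lower. Flanking genes that rose in the second knockout were 2, and 0 fell, near the 13.7% of all genes called: KIAA0141 (0.22, edgeR adjusted p = 0.000432) and FCHSD1 (0.33, adjusted p = 0.00175), with a median of 0.01.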

How the data were processed

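Whole-number counts per gene symbol were deposited by the authors for 16 poly-A libraries sequenced on a DNA nanoball platform. The submitters' processing notes name HISAT2, featureCounts, DESeq2 and build GRCh38, without versions. The annotation, strand setting and handling of multi-mapped reads are not given in the sources used here. The deposited table of normalised signal was not used. The gene deleted in the second knockout is not reported here.

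Members, gene lists and tests were chosen with earlier results of these data known. Genes were filtered with edgeR 4.0.16 in R 4.3.3 (minimum count 10, minimum total 15), leaving 15569. TMM scaling was used, and the 16 libraries entered a model of 4 group means without covariates. Quasi-likelihood F tests were adjusted by Benjamini-Hochberg over all tested genes. The script was checked on simulated data. CPM are given as mean ± SD and log2 fold changes ± SE. Alternatives were DESeq2 1.42.0, other scalings, filters and thresholds, a replicate block, other control sets, and leaving out each library.

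Named genes were members switched on or off, up to 10 called rises and 10 called falls in each comparison, the 5 largest differences between knockouts, the highest member of each type in each group, up to 3 members of each other list in each knockout by adjusted p, and SLC30A10. Further members are named as neighbours, as well-counted or as untested. PCDHB17, listed without the P of its RefSeq name, was kept apart as a pseudogene. Sequences and gene positions are from RefSeq for GRCh38.p14, and exon lengths from GENCODE 29.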

Additional observations from a re-analysis of the deposited data

Results flagged for a closer look

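In 8 of 84 groups of 4 libraries examined (21 tested members in 4 groups) the highest or lowest library stood apart from the others. The share given for each is the distance to its closest neighbour over the distance from lowest to highest library. Chance gives about 1 in 20, or 4.2 groups. In the SLC30A10 control, replicate 3 was high for PCDHA3 (2.56 CPM, others 1.94 to 2.01; share 0.888) and low for PCDHB4 (0.244 CPM, others 0.607 to 0.671; share 0.851), and replicate 1 was high for PCDHB9 (0.975 CPM, others 0.549 to 0.607; share 0.863). In the SLC30A10 knockout, replicate 3 was high for PCDHGA10 (6.19 CPM, others 4.10 to 4.41; share 0.851). In the second control, replicate 1 was low for PCDHGC3 (4.96 CPM, others 5.54 to 5.59; share 0.929). In the second knockout, replicate 4 was high for PCDHA3 (2.72 CPM, others 1.53 to 1.63; share 0.914), replicate 2 was low for PCDHGA11 (0.675 CPM, others 0.848 to 0.873; share 0.873), and replicate 3 was low for PCDHGC3 (5.21 CPM, others 6.19 to 6.24; share 0.959).

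The difference between a knockout and its own control was unequal in both experiments, by edgeR's test of that inequality, for PCDHB3 (adjusted p = 3.74e-07), PCDHB16 (adjusted p = 0.000292), PCDHB12 (adjusted p = 0.000330), PCDHB5 (adjusted p = 0.000948) and PCDHB8 (adjusted p = 0.0461), whose call was lost in 12 of 16 fits that left out a library, in DESeq2 and with a replicate block. Of these, PCDHB3 was called in each knockout, in opposite directions.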

How the results depend on the processing

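The low counts limit all of these results: 32 of 53 members could not be tested, and most intervals of the others admit changes of a size that was called elsewhere. The number of members called in the SLC30A10 knockout was 7 of 21 tested. Without the filter on low counts it was 11 of the 52 with a count, beside 25.8% of all genes fitted. It was 2 at a mean count of at least 50, where fewer members were fitted, 4 at an adjusted p under 0.01 and 2 with a 2-fold minimum. In the second knockout it was 1, and 2 with both control sets pooled and 5 with the other control set. Between the control sets it was 4, and 1 at a mean count of at least 50, at an adjusted p under 0.01 or with a 2-fold minimum. For the difference of effects it was 5, and 2 at a mean count of at least 50 and 3 with a 2-fold minimum. A stricter filter or threshold leaves fewer genes to call by construction, so these numbers do not show a change in share. The shares of all genes at a mean count of at least 50 and at an adjusted p under 0.01 were not computed. A comparison with other controls also contains all or part of the difference between the control sets, where 39.3% of all tested genes were called. How much of the higher number this made up was not tested, and the share of all genes called with other controls was not computed. For the lists in the second knockout, pooled controls gave 6 regulators, 12 partners, 5 non-clustered protocadherins and 4 flanking genes, and the other control set gave 16, 13, 5 and 7. There, library totals alone gave 2 non-clustered protocadherins, no filter gave 1 regulator, and 0 partners were called at an adjusted p under 0.01, with a 2-fold minimum or in a fit of the 8 libraries compared; 0 flanking genes were 2-fold. A 2-fold minimum gave 1 regulator, 0 partners, 4 non-clustered protocadherins and 0 flanking genes in the SLC30A10 knockout, 1, 0, 1 and 0 between the control sets, and 1 regulator, 0 partners and 0 flanking genes for the difference of effects. Between the control sets, partners numbered 7 with library totals alone and 6 at an adjusted p under 0.01, and flanking genes 3 at that threshold. For the difference of effects, flanking genes numbered 3 without the filter and 1 at an adjusted p under 0.01, where partners numbered 2. SLC30A10 turned from -0.32 to 0.19 with both control sets pooled. Leaving out each library gave 6 to 7 members in the SLC30A10 knockout, 0 to 2 regulators, 0 to 3 partners and 1 to 2 non-clustered protocadherins in the second knockout, 7 to 11 partners between the control sets, 3 to 5 flanking genes for the difference of effects, and SLC30A10 values of -0.61 to 0.011. The deviations of same-numbered libraries had a mean correlation of -0.0361 in the SLC30A10 experiment, 0.0591 in the second and 0.0278 between the control sets. Whether libraries of the same number have a batch in common was not tested. The best match of a library was its own number for 0, 2 and 3 libraries. A replicate block gave 7, 1 and 4 members in these comparisons and 4 in place of 5 for the difference of effects.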

Other observations

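The protocadherins outside the clusters, which lie at scattered loci and have no shared constant exons with the clustered genes, were measured in the same fit. Of 9 tested, edgeR called 1 higher and 6 lower in the SLC30A10 knockout, with a median log2 difference of -0.76 beside 0.00 for all genes, of which 21.2% were higher and 20.2% lower. PCDH20 had 246 to 273 counts in the control and 83 to 91 in the knockout (-1.59 ± 0.10, edgeR adjusted p = 1.32e-12). PCDH7 had 340 to 409 against 128 to 154 (-1.34 ± 0.08, edgeR adjusted p = 2.98e-13), and PCDH17 had 249 to 313 against 151 to 175 (-0.76 ± 0.08, edgeR adjusted p = 2.56e-08). In none of these 3, which were named for the smallest adjusted p of the list, did knockout and control libraries overlap. Of all tested genes, 38.3% were without overlap in this comparison.

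In the second knockout 1 of the 9 was called, beside 13.7% of all genes. PCDH19, an X-linked protocadherin known for its part in female-limited epilepsy, had 82, 96, 97 and 95 counts in the second control and 21, 23, 21 and 24 in the knockout (-2.04 ± 0.16, edgeR adjusted p = 8.04e-11). In the SLC30A10 knockout it had 174, 165, 164 and 151 counts against 94, 117, 93 and 134 in the control, a rise of 0.60 ± 0.11 (edgeR adjusted p = 4.13e-05). Between the control sets 4 of the 9 were higher and 2 lower in the SLC30A10 control, beside 18.5% and 20.8% of all genes. PCDH9, chosen after its values were seen, had 301 to 449 counts there and 110 to 127 in the second control (1.68 ± 0.18, edgeR adjusted p = 1.05e-07).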
